A study of Homo sapiens with 2 samples.

Results

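The genes of box C/D small nucleolar RNAs (snoRNAs) outside the large imprinted clusters were examined in chromatin RNA of SH-SY5Y cells, a human neuroblastoma line. Members were the 187 genes of type snoRNA in GENCODE version 44 that carry a plain SNORD symbol and had a row in the count files, of 60554 genes in all. The SNORD113, SNORD114, SNORD115 and SNORD116 families were left out by this rule, and 1 further gene of the rule, SNORD98, had no row. The rule used symbols and gene type and no count. The data are 2 replicates of 1 condition, parental cells with no genetic modification according to the labels, from which the RNA that stays with chromatin after cell fractionation was extracted. The sources used here do not say whether separate cultures gave the replicates, so the spread between them may be technical. A single condition allows no test of a change, and the values below are levels and counts with their spread over the 2 libraries. Intervals cover counting error only.

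Box C/D snoRNAs are short stable RNAs of the nucleolus that take their name from a pair of short sequence motifs, the C box near the 5′ end and the D box near the 3′ end. The boxes bind a set of proteins that includes fibrillarin, NOP56, NOP58 and SNU13. Most of these particles pair with ribosomal RNA and guide the methylation of a ribose, while U3 (SNORD3), U8 (SNORD118), U13 (SNORD13), U14 (SNORD14) and U22 (SNORD22) are known for roles in the cutting of the ribosomal RNA precursor. In human cells most C/D snoRNAs are cut out of the introns of other genes, the hosts, many of which encode ribosomal proteins or are non-coding transcripts. U3, U8 and U13 are instead transcribed from promoters of their own.

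The counts are read pairs that STAR assigned to 1 gene on the gene's own strand. The total over genes was 4155210 for replicate 1 and 3425309 for replicate 2, and levels are given as counts per 1000000 of this total (CPM). Members held 4354 counts in replicate 1 (0.105%) and 5795 in replicate 2 (0.169%). The label of the cells was checked on fixed lists. All 8 neuroblast marker genes had a mean count of at least 10, among them HAND2 (831 ± 153 CPM, SD, n = 2) and ISL1 (514 ± 16.4 CPM), whereas the 3 leukocyte, the 3 endothelial and the 3 Schwann cell markers had at most 2 counts in a library. EPCAM, 1 of 3 epithelial markers, had 26 and 17 counts. MALAT1, a nuclear RNA, stood at 5709 ± 377 CPM. Where neither library had a count, up to 3 counts over both, or 0.396 CPM, is still possible by a one-sided limit. This limit does not hold for genes whose read pairs can be shared with exons of another gene or with near-identical copies. Counts of 1 gene do not tell a cut-out snoRNA from an unspliced host transcript that spans it, and the share of each was not tested.

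A member was called detected at a mean count of at least 10 over the libraries. This held for 34 of 187 members (18.2%), set against 24.7% of all 60554 genes. Another 42 members had at least 1 count and 111 had none in either library, so that the median count of members was 0. With any count were 40.6% of members, set against 44.4% of all genes, whose median count was also 0. SNORD3A and SNORD17 carried 71.2% of the members' counts in replicate 1 and 83.2% in replicate 2. The sequences of the members at the top of this order are shown first, in lower case with the C box (TGATGA within the first 25 bases) and the D box (CTGA within the last 15 bases) in capitals. They were read from hg38, 5′ to 3′ on the strand of the gene.
SNORD3A, bases 1 to 218, chr17:19188016-19188233, plus strand: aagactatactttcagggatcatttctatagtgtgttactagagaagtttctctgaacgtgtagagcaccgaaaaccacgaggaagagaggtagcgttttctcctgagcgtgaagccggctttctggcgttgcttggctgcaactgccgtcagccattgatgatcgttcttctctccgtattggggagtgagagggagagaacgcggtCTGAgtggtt
SNORD17, chr20:17962710-17962946, minus strand: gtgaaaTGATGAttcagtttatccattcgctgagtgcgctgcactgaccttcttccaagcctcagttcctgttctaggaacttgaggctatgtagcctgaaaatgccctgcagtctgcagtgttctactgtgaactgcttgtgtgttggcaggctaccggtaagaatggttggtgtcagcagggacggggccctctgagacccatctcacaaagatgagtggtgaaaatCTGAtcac
SNORD31B, chr13:107320895-107320963, minus strand: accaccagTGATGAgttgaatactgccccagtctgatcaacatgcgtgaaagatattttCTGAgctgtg
SNORD94, chr2:86135870-86136006, plus strand: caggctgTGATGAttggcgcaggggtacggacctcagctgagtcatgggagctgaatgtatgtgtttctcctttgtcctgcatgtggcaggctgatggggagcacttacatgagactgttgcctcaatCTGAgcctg
SNORD17, SNORD31B and SNORD94 have both boxes at these places, and the stretch of the U3 gene has the D box only. Both boxes were found in 98 of 187 members (52.4%), in 22 of 34 detected members, in 97 of 122 genes of the imprinted clusters and in none of 213 H/ACA snoRNA genes, the other large snoRNA class, which has different boxes. Of 6190 other short genes, which are of small RNA types and at most 300 bases, 0.323% held both. Such genes can include snoRNA genes with other symbols. The C box in these letters was present in 106 members and the D box in 154.

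U3, the most abundant C/D snoRNA known in human cells and part of the particle that makes the first cuts in the ribosomal RNA precursor, has several near-identical genes. SNORD3A had 2028 counts in replicate 1 and 3065 in replicate 2, a level of 691 ± 288 CPM (SD, n = 2), the highest of all members. SNORD3B-1 followed with 108 and 65 counts, SNORD3B-2 with 100 and 49, and SNORD3C with 70 and 73. The replicates did not agree on SNORD3A within counting error, since its CPM in replicate 1 was 0.545 times that in replicate 2 (95% interval 0.515 to 0.577). For SNORD3B-2 the ratio went the other way, at 1.68 (1.18 to 2.42).

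The U3 gene models are longer than the mature RNA, at 699 bases for SNORD3A, 758 for SNORD3B-1, 791 for SNORD3B-2 and 581 for SNORD3C. In each of them the first 218 bases match the 218-base model of SNORD3D, with 2 to 4 differences (98.2% to 99.1% identity), and the remaining 363 to 573 bases lie downstream. Each of the 4 genes has 4 further places in the genome of at least 90% identity, and read pairs that map equally well to several places are in no gene's count. The level of each U3 gene is therefore uncertain, and the order among the 4 genes cannot be read as their order of transcription. SNORD3D itself, which has 2 overlapping records and lies on an exon of another gene, had no count.

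The other genes with promoters of their own had few counts. SNORD13, the U13 gene, had 6 and 7 counts (mean 6.5), below the limit for detection. It has 5 further places in the genome of at least 90% identity, the closest at 96.1%. SNORD118, the U8 gene, had 0 in both libraries, and all of its bases lie on an exon of TMEM107 on the same strand, which itself had 41 and 31 counts. SNORD3G had 0 and 1. In all, 30 members had no gene around them on the same strand. The 4 detected ones were the 4 U3 genes, 4 others had between 1 and 13 counts over both libraries, and 22 had none.

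**Figure D1:**
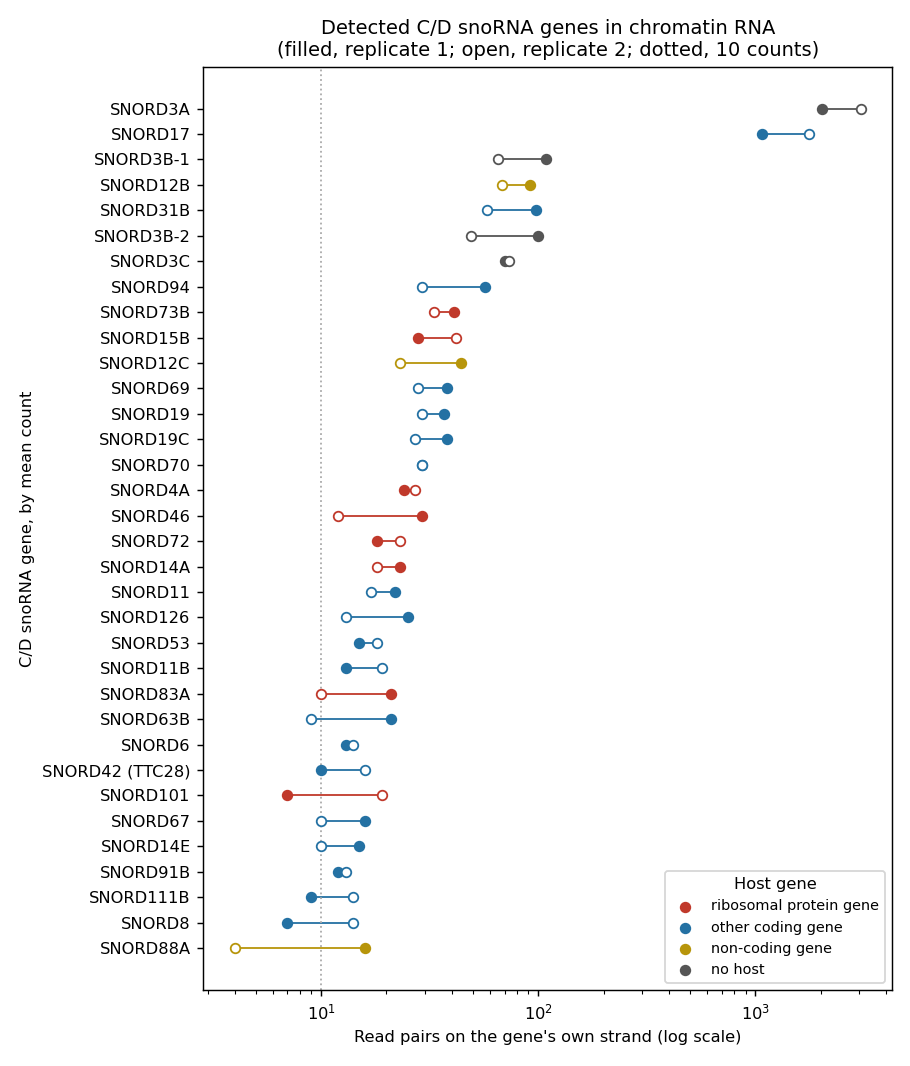
Read pairs on the gene's own strand (x axis, log scale) for the 34 detected members (y axis, ordered by mean count), with replicate 1 as filled and replicate 2 as open points joined by a line and coloured by the class of the host gene. SNORD3A and SNORD17 exceed 1000 counts in both libraries and are higher in replicate 2, while the other 32 lie between 4 and 108 counts; equal counts of SNORD70 hide 1 of its points.

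SNORD17, a guide for the large ribosomal RNA with a length of 237 bases, lies in intron 1 of 12 of SNX5, a gene of endosomal sorting. It had 1074 counts in replicate 1 and 1755 in replicate 2, a level of 385 ± 180 CPM. Its CPM in replicate 1 was 0.504 times that in replicate 2 (0.467 to 0.545). Its host had 1026 and 776 counts, so that the host was higher in counts in replicate 1 and the snoRNA in replicate 2. Per kb of gene, SNORD17 stood at 1626 CPM, and no such level is set beside it for SNORD3A, whose gene model is longer than the mature RNA. In the canonical transcript of SNX5 the next exon downstream is 5672 bases away, and the nearest exon of any gene on the same strand is 517 bases away. No read pair fell on the opposite strand of SNORD17, and it has no near copy in the genome.

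No other hosted member was near this level. SNORD12B in the non-coding gene ZFAS1 had 92 and 68 counts (21.0 ± 1.62 CPM), SNORD31B in intron 1 of NALF1 had 98 and 58 (20.3 ± 4.70 CPM) and SNORD94 in intron 21 of PTCD3 had 57 and 29 (11.1 ± 3.71 CPM). SNORD94 guides a methylation of the U6 spliceosomal RNA. SNORD31B lies in an intron of 654926 bases in the canonical transcript, with 110139 bases to the next exon downstream. Next came SNORD73B in RPS3A with 41 and 33 counts, SNORD15B in RPS3 with 28 and 42, and SNORD12C in ZFAS1 with 44 and 23. The remaining members among the 15 highest, SNORD69, SNORD19, SNORD19C and SNORD70, lie in hosts with 4 members each and are described with them. From SNORD94 downwards, the counting intervals of neighbours in this order overlap. The other 19 detected members, all hosted, had means of 10 to 25.5 counts.

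Hosts were found for 157 members, in 87 genes. The distance to the exon downstream had a median of 155 bases over the 143 members in introns of the host's canonical transcript, and 57 of them (39.9%) lay 50 to 100 bases from it. These 143 members sat in 140 different introns, so that 1 member in 1 intron was the usual arrangement. Of 157 hosted members, 30 were detected (19.1%), against 4 of 30 without a host (13.3%). The share was 8 of 43 in ribosomal protein genes, 19 of 75 in other coding genes and 3 of 39 in non-coding genes. Hosts themselves were well covered, with a mean of 10 counts or more in 77 of 85 hosts with a row and a median level of 116 CPM.

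The counts of members differed with cover by exons of another gene on the same strand. STAR leaves a read pair that falls on exons of more than 1 gene out of both counts, and many snoRNAs lie inside an exon of an alternative transcript of the host. Of the 157 hosted members, 65 touched no such exon, 15 were covered in part and 77 were covered over their whole length, 54 of these by a transcript that retains the intron. Of the 65 members off exons 27 were detected (41.5%) and 57 had a count (87.7%), with a median of 7 counts. Of the 15 covered in part 1 was detected and 8 had a count, and of the 77 covered in full 2 were detected (2.60%) and 3 had a count. The 3 were SNORD63B with 21 and 9 counts and a SNORD63 gene with 1 and 5, both in HSPA9, and SNORD8 in CHD8 with 7 and 14, so that with either library left out 1 of the 77 reached 10 counts. Among 2492 other short genes of small RNA types that lie inside a gene of the same strand off its exons, 7.91% were detected. Of these 2492 genes, 1240 had a count (49.8%). Among 267 other short genes of these types covered in full, with or without a host, 10 were detected (3.75%). Off exons, with or without a host, 224 of 5819 were detected (3.85%). The share of covered members was thus near that of other covered short genes. Exon cover was taken from GENCODE version 44, and the sources used here do not name the annotation that the authors counted with. Members covered in full also differed in place. Over members in introns of the canonical transcript, the median intron length was 446 bases for those covered in full and 1411 off exons. The median distance to the exon downstream was 107 and 430.5 bases. The part of these differences in the counts was not tested. How many read pairs were lost to exons shared with a host was not tested.

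The same contrast was seen among members of single hosts. In 15 hosts at least 1 member lay off exons and at least 1 was covered in full. In 12 of them the members off exons had more counts than the covered ones, and in 2 both had none. In 1, CHD8, SNORD8 (covered, 21 counts over both libraries) had more than SNORD9 (off exons, 11 counts). Among the 12, the contrast in SNHG16 rests on 1 count over both libraries. Over the 15 hosts the 17 members off exons held 604 counts and 12 were detected, and the 22 covered members held 21 counts, all of them from SNORD8. Pairs of related snoRNAs of 1 host are shown because they differ in cover, with the boxes in capitals where these letters are present.
SNORD12B, chr20:49280319-49280409, plus strand: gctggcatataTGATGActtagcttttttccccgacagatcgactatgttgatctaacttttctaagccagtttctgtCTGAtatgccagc
SNORD12C, chr20:49278940-49279028, plus strand: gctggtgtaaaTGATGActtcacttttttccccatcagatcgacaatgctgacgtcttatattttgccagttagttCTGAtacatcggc
SNORD12, chr20:49280683-49280772, plus strand: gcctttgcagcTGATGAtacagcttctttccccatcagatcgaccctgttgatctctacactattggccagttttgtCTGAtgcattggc
SNORD73B, chr4:151102057-151102128, plus strand: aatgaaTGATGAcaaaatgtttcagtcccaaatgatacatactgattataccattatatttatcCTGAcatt
SNORD73A, chr4:151103827-151103891, plus strand: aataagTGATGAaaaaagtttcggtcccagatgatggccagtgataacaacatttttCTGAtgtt
SNORD4A, chr17:28722582-28722653, plus strand: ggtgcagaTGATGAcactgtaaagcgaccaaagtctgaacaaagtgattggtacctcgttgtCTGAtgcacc
SNORD4B, chr17:28723682-28723753, plus strand: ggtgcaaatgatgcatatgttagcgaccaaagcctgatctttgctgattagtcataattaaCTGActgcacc
SNORD12C lies off exons of ZFAS1, SNORD12B is covered over 96.7% of its bases and SNORD12 over all of them. They are 68.1% to 73.6% identical, and SNORD12C had 44 and 23 counts, SNORD12B 92 and 68 and SNORD12 none. SNORD12B is thus an exception among the members covered in part, of which the other 14 had at most 4 counts in a library. In RPS3A, SNORD73B (41 and 33 counts) lies off exons and SNORD73A (0 and 0), 70.8% identical to it, is covered. SNORD4A (24 and 27) and SNORD4B (0 and 0) in RPL23A, 72.2% identical, follow the same pattern. SNORD14A in RPS13 had 23 and 18 counts and SNORD14E in HSPA8 15 and 10, both off exons. The covered U14 genes SNORD14B in RPS13 and SNORD14C and SNORD14D in HSPA8 had none. SNORD14 in DNAJC27, a U14 gene that also lies off exons, had 1 and 2.

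Of the 9 hosts with 4 or more members, which hold 40 members, 9 members had a count. SNHG1, a non-coding gene known as a snoRNA host, holds 7 members including both SNORD22 records, all covered by its exons, and none had a count although SNHG1 had 2461 and 2025. The 4 members of NOP56 (host 1055 and 904 counts), the 4 of RPL13A (576 and 410) and the 4 of RPL4 (2139 and 1506) were covered in full and had none. In RPL7A (248 and 146), 3 were covered in full and SNORD36C over 95.5%, again with no count. In RPL23A (288 and 193), SNORD4A had the counts given above, and SNORD42A, SNORD42B and SNORD4B had none.

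GNL3, which encodes the nucleolar protein nucleostemin, and NOP58, which encodes a core protein of the C/D particle itself, were the 2 hosts of this size with more than 1 counted member. Their members are printed because ones with more counts and ones with few or none lie side by side in the same host.
SNORD19, chr3:52689248-52689315, plus strand: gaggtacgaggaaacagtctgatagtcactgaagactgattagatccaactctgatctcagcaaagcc
SNORD19B, chr3:52690744-52690827, plus strand: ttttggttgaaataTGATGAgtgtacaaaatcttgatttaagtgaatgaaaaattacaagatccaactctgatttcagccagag
SNORD19C, chr3:52691378-52691453, plus strand: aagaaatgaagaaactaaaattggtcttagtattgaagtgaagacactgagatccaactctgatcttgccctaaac
SNORD69, chr3:52692736-52692812, plus strand: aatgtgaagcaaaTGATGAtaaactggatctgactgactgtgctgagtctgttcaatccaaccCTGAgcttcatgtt
SNORD70, chr2:202276431-202276518, plus strand: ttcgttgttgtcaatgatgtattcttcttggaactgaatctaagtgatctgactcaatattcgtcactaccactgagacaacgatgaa
SNORD70B, chr2:202278108-202278192, plus strand: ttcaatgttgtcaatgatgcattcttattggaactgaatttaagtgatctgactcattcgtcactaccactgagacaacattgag
SNORD11B, chr2:202291332-202291421, plus strand: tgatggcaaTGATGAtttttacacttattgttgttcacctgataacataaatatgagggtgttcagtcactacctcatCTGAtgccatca
SNORD11, chr2:202293051-202293134, plus strand: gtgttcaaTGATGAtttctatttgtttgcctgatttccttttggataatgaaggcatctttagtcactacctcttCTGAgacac
In GNL3 (2179 and 1996 counts), SNORD19 had 37 and 29 counts, SNORD19C 38 and 27 and SNORD69 38 and 28, and SNORD19B, the 1 member covered by a GNL3 exon, had none. The 3 counted members stood at 8.69 ± 0.310, 8.51 ± 0.893 and 8.66 ± 0.686 CPM, so that they did not differ beyond their spread. In NOP58 (1417 and 1353), SNORD70 had 29 and 29 counts, SNORD11 22 and 17 and SNORD11B 13 and 19. SNORD70B, covered over 72.9% of its bases and 87.5% identical to SNORD70, had 4 and 3. SNORD19, SNORD19B and SNORD19C were 56.0% to 61.8% identical. The letters of both boxes were absent from the windows searched in SNORD19, SNORD19C, SNORD70 and SNORD70B, and SNORD19B, which had no count, has the C box.

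**Figure D2:**
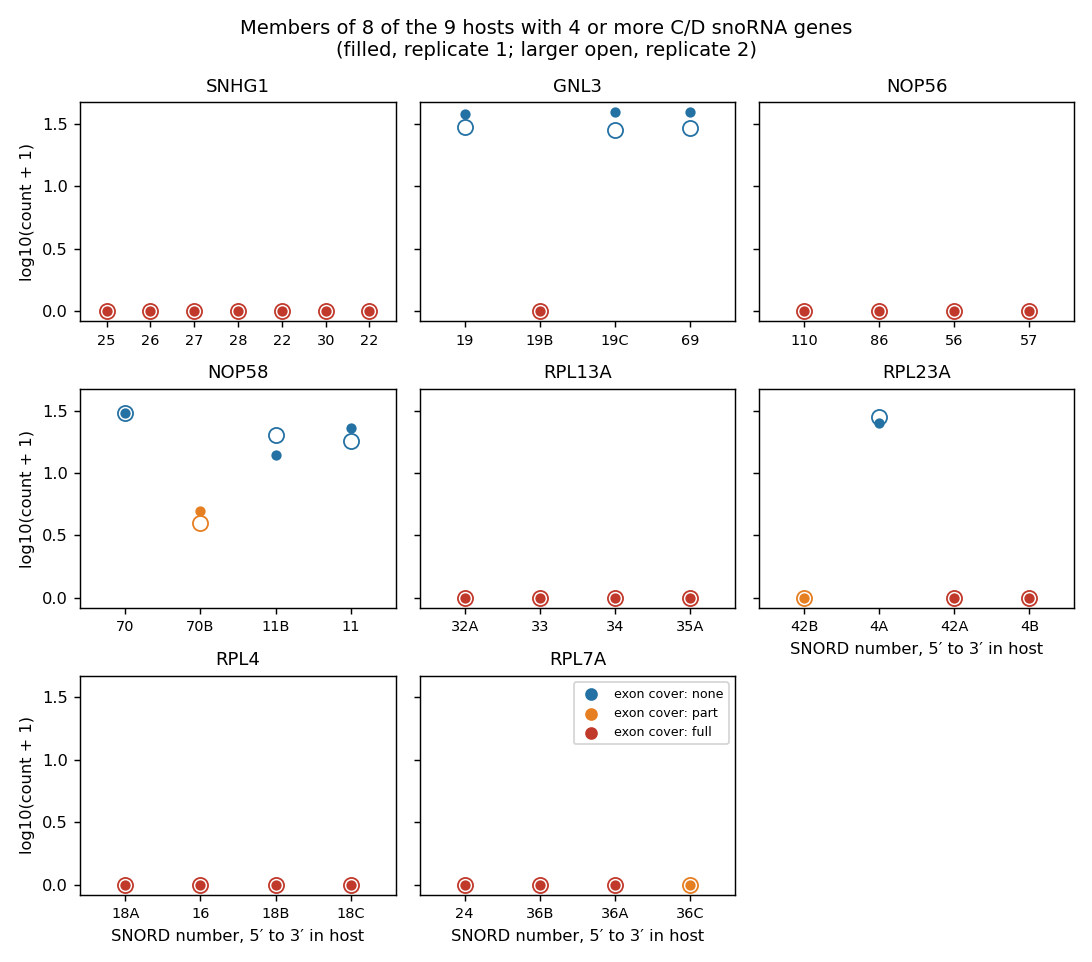
Counts as log10(count + 1) (y axis) of the members of 8 of the 9 hosts with 4 or more, from 5′ to 3′ in the host (x axis), with replicate 1 as filled and replicate 2 as larger open points, in blue off exons, in orange covered in part and in red covered in full. Every red point is at 0, and 7 of the 8 counted members are blue, the exception being SNORD70B with 4 and 3 counts.

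Among hosted members off exons, the level went with that of the host. For 59 such members in introns of 48 hosts with a row, the Spearman correlation between the member's mean count and the host's CPM per kb of exon was 0.69. The median host level was 43.6 CPM per kb for the detected members and 12.2 CPM per kb for the others. All points come from the same 2 libraries, share their depth and in part their hosts, so the coefficient is a description. Host counts leave out read pairs on exons shared with another gene, so the level of a host can be understated. Length (0.20), GC content (-0.09), intron length (-0.04), the distance to the exon downstream (-0.07) and the distance to the nearest exon (0.04) had coefficients closer to 0. By length, 11 of 33 members under 80 bases, 10 of 21 of 80 to 99 bases and 6 of 11 longer ones were detected. SNORD17 and SNORD31B lay far above other members with hosts of their level. Of the 9 members off exons in ribosomal protein genes 8 were detected, of the 46 in other coding genes 17 and of the 10 in non-coding genes 2.

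Of the 65 hosted members off exons, 8 had no count. The host of 5 of them had at most 1 count in a library or no row (SNORD117 in DDX39B, SNORD93 in SNHG26, SNORD28B, and the SNORD39 genes in MIR31HG and C4orf45), SNORD83 lies in RASSF3 with 67 and 59 counts, and SNORD41 in TNPO2 with 713 and 495 and SNORD109B in SNHG14 with 1474 and 1253 had hosts with more. These 8 were listed after their values were seen. A host's count also leaves out read pairs on exons shared with another gene, so a low count can understate the host. How many host pairs were lost in this way was not tested. SNORD109B belongs to a group of 6 members, with SNORD64, SNORD107, SNORD108, SNORD109A and SNORD112, that pass the rule by symbol but lie beside the imprinted SNORD115, SNORD116, SNORD113 and SNORD114 clusters, in or near the transcripts of SNHG14 and MEG8. They therefore lie inside imprinted regions although the rule was meant to leave these out, and all 6 had no count. Of these 6, 4 were covered by exons in full and SNORD112 over 97.4%. SNORD109B lies off exons but is 100% identical to SNORD109A. Read pairs that map equally well to both places are in no gene's count, so the level of SNORD109B cannot be read from its count.

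The reads of members followed the annotated strand. Of 36 members with a mean of at least 10 counts over both strands together, 34 had more counts on their own strand than on the opposite one, against 74.3% of all genes that reached this limit, and 27 of the 36 had no count on the opposite strand. The median share on the own strand was 100%, and 97.6% in all genes. SNORD3C was the 1 detected member with more than 2 counts on the opposite strand in a library, with 70 and 73 counts on its own strand against 33 and 46 on the other, a share of 64.4% (Clopper-Pearson interval from 57.7%). SNORD3A lies 950 bases from it on the other strand. The 2 members with the reverse order were the SNORD18 gene on chromosome 15 that has no host (0 and 0 on its own strand, 12 and 18 on the opposite one) and SNORD65C (0 and 0, 15 and 7). Both lie inside a gene on the opposite strand. Unstranded counting would have given SNORD4A and SNORD13 no count, in place of 24 and 27 and 6 and 7, and SNORD4A overlaps an exon of the opposite strand.

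**Figure D3:**
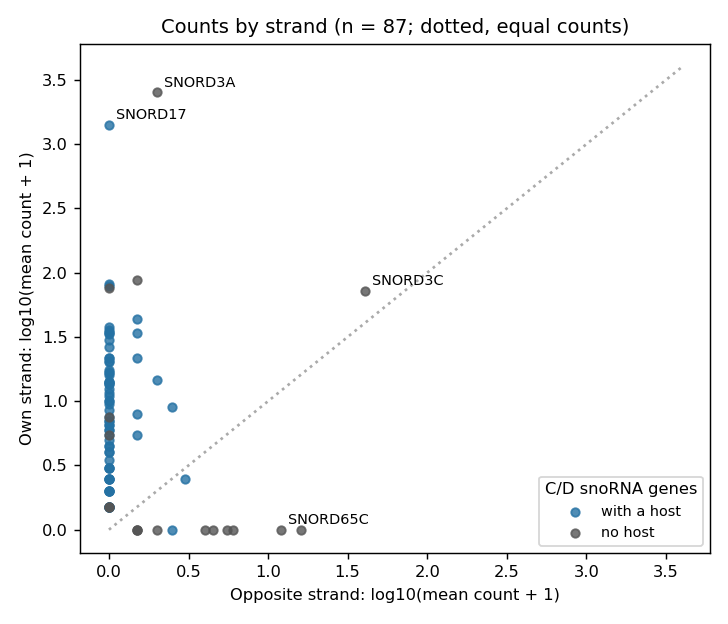
Mean counts on the own strand (y axis) and on the opposite strand (x axis), both as log10(mean count + 1), for the 87 members with a count on either, with hosted members in blue and members without a host in grey. Most points lie on the y axis, SNORD3C is near the line of equal counts, and the points along the x axis have no count on their own strand.

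The 2 replicates gave levels within 2 times of each other for most detected members. The CPM was higher in replicate 1 for 19 of 34. The median log2 ratio of replicate 1 over replicate 2 was 0.07 (range -1.72 to 1.72). Over all 14978 detected genes the median was 0.02 with an SD of 0.39, and the 5th and 95th percentiles were -0.54 and 0.72. Members lay outside this band on either side, among them SNORD3A (-0.87), SNORD17 (-0.99) and SNORD3B-2 (0.75). The Spearman correlation of the counts of the 34 members was 0.77. More than 2 times apart were 3 members (8.82%), set against 2.72% of all detected genes: SNORD101 with 7 and 19 counts, SNORD8 with 7 and 14 and SNORD88A with 16 and 4. All 3 had low counts. For 7 members the 95% interval of the ratio did not include 1. SNORD3B-2, SNORD94 and SNORD88A were higher in replicate 1, and SNORD3A, SNORD17, SNORD15B and SNORD101 in replicate 2. These intervals cover counting error only. The share of all detected genes with such an interval was not computed, so whether 7 of 34 is unusual is not known. Without SNORD3A and SNORD17 the members held 1252 counts in replicate 1 and 975 in replicate 2, so that the larger share of members in replicate 2 came from these 2 genes.

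Other snoRNA classes were counted in the same way. Of 213 H/ACA genes, which guide pseudouridylation, 41 were detected (19.2%), and 32 of the 82 that were hosted and off exons (39.0%), beside 27 of 65 for the C/D members (41.5%). Of 25 genes of Cajal body RNAs (scaRNA), 8 were detected, 7 of them among the 14 hosted off exons. Of the 122 genes of the imprinted C/D clusters 3 were detected, all 3 among the 41 covered in full by exons, of which 24 had a count (58.5%), and none of the 70 hosted off exons was detected, of which 9 had a count (12.9%). This order is opposite to that of the C/D members. Near copies in the genome were searched for the members only. Read pairs that map equally well to several places are in no gene's count, and their part in the imprinted clusters was not tested. Of the H/ACA genes covered in full 7 of 63 were detected (11.1%), and of the scaRNA genes 1 of 8, with a mean of 738 counts. No test was made between the classes.

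The genes of the proteins that build C/D particles were measured in the same libraries, by lists named from known roles. Of the core proteins, NOP58 had 1417 and 1353 counts (368 ± 38.2 CPM), NOP56 1055 and 904 (259 ± 7.09 CPM) and SNU13 57 and 34, and FBL, the methyltransferase fibrillarin, had 13 and 5 and missed the limit. Of 8 assembly factors 7 were detected. RUVBL1 and RUVBL2, a pair of related ATPases, stood at 89.5 and 96.8 CPM, and ZNHIT3 at 2 counts in each library. On the opposite strand ZNHIT3 had a mean of 38 counts and FBL had none. Read pairs on exons shared with another gene are in no count, and their part in the low counts of FBL and ZNHIT3 was not tested. All 6 genes of cap modification and transport were detected, from PHAX, an export adaptor (24.8 CPM), to NCBP1, a cap-binding protein (314 CPM). All 6 genes of intron release and trimming were detected too, among them XRN2, an exonuclease that trims 5′ ends (463 ± 11.7 CPM), AQR, a helicase of the spliceosome (312 ± 19.4 CPM), and DBR1, which opens intron lariats (24.7 ± 1.11 CPM). Over these 24 genes 22 were detected, set against 59.4% of 19586 protein-coding genes.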

How the data were processed

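RNA bound to chromatin in SH-SY5Y cells was sequenced from 2 replicates. The authors made directional libraries tagged with molecular identifiers, sequenced both ends, removed rRNA and spike-in reads, mapped with STAR, removed duplicates with UMI-tools and mapped again. The deposited values are STAR's raw counts, in read pairs per gene, unstranded and for each strand. UMI-tools, Bowtie, STAR and hg38 are credited to the submitters' processing notes, and the sources used here give neither versions nor options nor the annotation. Pairs on several places or on exons of more than 1 gene (2.09% and 1.79% of unique pairs) are in no gene's count.

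The column with the higher total in both libraries, column 4 (totals 4155210 and 3425309), was used. Names, positions and exons came from GENCODE version 44 on hg38, which held 56558 of the 60554 genes, and sequences from the hg38 genome. The host was a longer gene on the same strand around the member. Copies were places of at least 90% identity over at least 90% of the length, by blastn 2.17.0. CPM is per 1000000 counts in genes. Intervals are exact Poisson or Clopper-Pearson at 95%. Named members were the 15 highest, those without host and with a mean of at least 10, U3, U8 and U13, all in hosts with 4 or more members, and those that differed by strand or by more than 2 times between libraries. Of the hosts with 4 or more members, 1 is not reported here. The other members named were chosen after their values were seen. They are partners of named members in the same host or snoRNA family, and covered members with a count. Members without a count off exons and members in imprinted regions were also among them. Members and lists were chosen with earlier results of these data known. No test was made, since there was 1 condition, and the scripts were tested on simulated data. Alternatives were other columns, limits, single replicates, edgeR 4.0.16 scaling and subsets of members. Analyses ran in Python 3.11.15 with pandas 2.3.3, numpy 2.4.6 and scipy 1.17.1.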

Additional observations from a re-analysis of the deposited data

Results flagged for a closer look

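Counts on the strand opposite to the gene, which the comparisons do not use, reached more than the limit of 3 counts over both libraries for 8 members, given here as a mean over the libraries. SNORD3C had a mean of 39.5 opposite counts (33 and 46). The SNORD18 gene on chromosome 15 had 15 (12 and 18) and SNORD65C had 11 (15 and 7). SNORD38D had 5, the SNORD81 gene on chromosome 7 had 4.5, SNORD13D had 3.5 and SNORD79 had 3. SNORD96B in AMMECR1 had 2, beside 2 and 1 counts on its own strand. All of these except SNORD3C and SNORD96B had no count on their own strand and lie inside a gene of the opposite strand.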

How the results depend on the processing

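Of 94 alternatives over 16 results, 63 moved the result by less than its limit, 29 moved it by more and 2 turned its sign. The number of detected members depended on the limit: 69 at a mean of at least 1, 2 at 100 and 76 with any count, and 3 in the opposite strand column. Hosted members gave 63, 1 and, in the opposite column, 0, and members without a host gave 1 at 100 and 0 of 20 when members with a copy elsewhere were left out, where hosted members off exons gave 24 of 53. The median CPM of hosted members was 1.86 off exons and 2.03 over members with a count, and that of members without a host 0.117 in the unstranded column and 10.4 over members with a count, in place of 0. At limits of 1 and 100, members off exons gave 61 and 2, those covered in part 5 and 0, and the fully covered 0 at 100. More own-strand counts were found for 68 members at 1 and 3 at 100. H/ACA genes gave 74 and 6, scaRNA genes 3 at 100 and imprinted C/D genes 27 and 0. The median log2 ratio of the replicates was -0.12 at 1 and -0.93 at 100, where SNORD3A and SNORD17 alone are left. The correlation with length was 0.26 unstranded.

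With either replicate left out, 33 to 34 members were detected, 29 to 30 of them hosted and 4 to 4 without a host, 31 to 32 off exons, 1 to 1 covered in part and 1 to 1 covered in full, since SNORD63B falls below 10 without replicate 1 and SNORD8 without replicate 2. The correlation with host level was 0.64 to 0.71 and with length 0.15 to 0.21. The cause of the other shifts was not tested. No paired analysis was possible because there was 1 condition, with nothing to pair. Counting intervals are wide for members with a few counts, and the part of exon cover in low counts was not tested.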
